A study of Homo sapiens with 6 samples.

Results

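The NRF2 antioxidant response genes were the 9 genes NFE2L2, KEAP1, NQO1, TXN, TXNRD1, SRXN1, GCLC, GCLM and SLC7A11, taken by gene symbol from the 16279 genes of the deposited tables. All 9 were present and all 9 passed the filter on low counts, after which 13311 genes were tested. The libraries came from 12Z, an established human cell line of endometriotic epithelial origin that the labels describe as endometrial epithelial. The cells were left without treatment (Control, n = 3) or received 10 ng/mL rhChem157S, the recombinant active form of the adipokine chemerin, for 48 h (n = 3). No vehicle arm is described, so the Control cells differed from the treated cells in the whole addition. The labels number the libraries of each group as biological replicates 1 to 3, and nothing states whether they were separate cultures, so the p-values measure the spread between these libraries.

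NRF2, encoded by NFE2L2, is the transcription factor that switches on genes of detoxification and antioxidant defence. In unstressed cells KEAP1 holds NRF2 and hands it to the CUL3 ubiquitin ligase for destruction. Oxidants and electrophiles modify cysteines of KEAP1, NRF2 then escapes, enters the nucleus, pairs with a small MAF protein and binds antioxidant response elements in its target genes. The pathway is therefore set mainly by the stability of the NRF2 protein, which read counts of mRNA do not measure. Endometriotic lesions are known for iron and oxidant load, which makes these genes of interest in this cell type.

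The antioxidant response element has the core TGACNNNGC, and this core was searched on both strands in the RefSeq promoter windows (250 bases before to 50 bases after each start, build GRCh38.p14). Of the 9 genes, 8 had a window, with 11 windows in all, and SLC7A11 had none. The core was found in 4 of the 11 windows, against 13.3% of all 35116 windows. These were the first and second TXNRD1 windows, the GCLM window and the second KEAP1 window, so 3 of the 8 genes had it. The first KEAP1 window held none, and the KEAP1 stretch below comes from the second. The genes were picked as NRF2 genes, so these shares are a description. The core followed by an A was found in 3 of the 11 windows, against 3.18% of all windows. The opening letters TGAC are also those of AP-1 sites, and a match is a run of letters and not a measured binding site. Stretches of 60 bases that hold the core are shown beside one of TXN, whose product is acted on by that of TXNRD1. The log2 fold changes of rhChem157S against Control were -0.46 for TXNRD1, 0.09 for GCLM, -0.08 for KEAP1 and 0.50 for TXN. Whether the core bears on any of these values was not tested. Capitals mark 1 core in each stretch, which reads TGACNNNGC on the printed strand or on the opposite strand. The KEAP1 stretch holds another core on the printed strand, TGACACGGC, left in lower case, and the TXN stretch, the last 60 bases before its start, holds none.
TXNRD1 first start: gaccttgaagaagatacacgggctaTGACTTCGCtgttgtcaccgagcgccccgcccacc
TXNRD1 second start: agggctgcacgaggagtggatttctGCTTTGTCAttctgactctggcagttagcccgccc
GCLM: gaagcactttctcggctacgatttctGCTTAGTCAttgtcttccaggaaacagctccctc
KEAP1: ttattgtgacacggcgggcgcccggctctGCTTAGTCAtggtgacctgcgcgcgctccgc
TXN: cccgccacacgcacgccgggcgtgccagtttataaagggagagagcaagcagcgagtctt

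The TXNRD1 stretches lie at chr12:104215655-104215714 and chr12:104286905-104286964 on the plus strand. The others lie on the minus strand, GCLM at chr1:93909431-93909490, KEAP1 at chr19:10502772-10502831 and TXN at chr9:110256508-110256567. The cores in capitals began 99 and 102 bases before the start in the TXNRD1 windows, 34 bases before it in GCLM and 31 bases before it in KEAP1. The other KEAP1 core began 54 bases before the start, and the first TXNRD1 window held another core, TGACGGAGC on the opposite strand, that began 8 bases before the start and is not printed. The capitalised cores of GCLM and KEAP1 had the same letters, TGACTAAGC. No core was in the windows of NFE2L2, NQO1, SRXN1 or GCLC, which says only that these letters are not within those windows.

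Gene counts summed to between 35430881 and 38341643 in a library, and a single count in the shallowest one equals 0.0282 CPM (counts scaled to a common total). The libraries of the treated group were spread more widely than the Control libraries. On the first principal component of the 500 most variable genes the Control libraries scored -20.7 to -13.6, and rhChem157S replicates 1, 2 and 3 scored -6.15, 15.4 and 45.0, so that replicate 3 stood apart. The TMM factors, which correct for the composition of a library, were 1.04 to 1.05 in Control libraries and 1.00, 0.973 and 0.898 in the treated ones. The deposited FPKM (reads scaled by gene length and library total) are scaled by library totals without this correction. Without it the median log2 fold change of all tested genes was -0.12, against 0.01 with it, so an FPKM value of the treated group sits slightly low. Of the epithelial markers, KRT8, KRT18 and KRT19 were between 277 and 966 FPKM in every library, while CDH1 did not exceed 0.381 FPKM and EPCAM 0.807 FPKM. All 7 stromal markers had a median above 1 FPKM, with a summed level of 1600 to 2070 FPKM in Control and 1110 to 2160 FPKM in treated libraries. Endothelial markers summed to at most 2.01 FPKM, and the leukocyte marker PTPRC reached at most 0.0535 FPKM, although CD14 was at 36.9 to 51.5 FPKM in Control and 6.64 to 21.2 FPKM in treated libraries, a log2 fold change of -1.49 (adjusted p = 0.1003 with edgeR and adjusted p = 0.000432 with DESeq2). The 7 epithelial markers summed to 1600 to 1870 FPKM in Control and 1760 to 1980 FPKM in treated libraries, a sum carried by the keratins, and the immune list to 122 to 171 FPKM and 92.7 to 136 FPKM. In FPKM every treated library lay under the Control range for EPCAM, CDH1 and MUC1, with log2 fold changes of -1.46, -1.14 and -0.57. Of these DESeq2 called MUC1 (adjusted p = 0.0404, against 0.135 with edgeR), whose groups overlapped in TMM-scaled CPM. EPCAM and CDH1 had at most 45 and 65 counts in a library. The keratins went the other way, with 0.29 for KRT8, 0.27 for KRT19, 0.16 for KRT18 and 0.08 for KRT7. In TMM-scaled CPM every treated library was above the Control libraries for KRT8 and KRT19 (adjusted p = 0.201 and 0.209, edgeR). The part of these markers in the results was not tested. In bulk RNA a lower level in each cell and fewer expressing cells cannot be told apart.

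In Control cells the 9 genes spanned a wide range of mRNA levels per length. TXNRD1 was highest with 220.5 ± 19.7 FPKM (SD, n = 3), above 99.0% of the genes in the table. It was followed by TXN with 163 ± 1.44, NQO1 with 75.1 ± 10, NFE2L2 with 50.6 ± 1.5, KEAP1 with 33.1 ± 0.384 and SRXN1 with 21.3 ± 1.23 FPKM (SD, n = 3 each). GCLC with 6.93 ± 0.810, GCLM with 6.36 ± 0.390 and SLC7A11 with 2.25 ± 0.175 FPKM (SD, n = 3 each) were lowest. Among neighbours in this order, the Control ranges overlapped between GCLC and GCLM and between no other pair. In treated cells the mean order was the same except for TXN, which stood above TXNRD1, and GCLM, which stood above GCLC. The plot of FPKM in each library shows these levels on a scale that starts at 0.

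**Figure D1:**
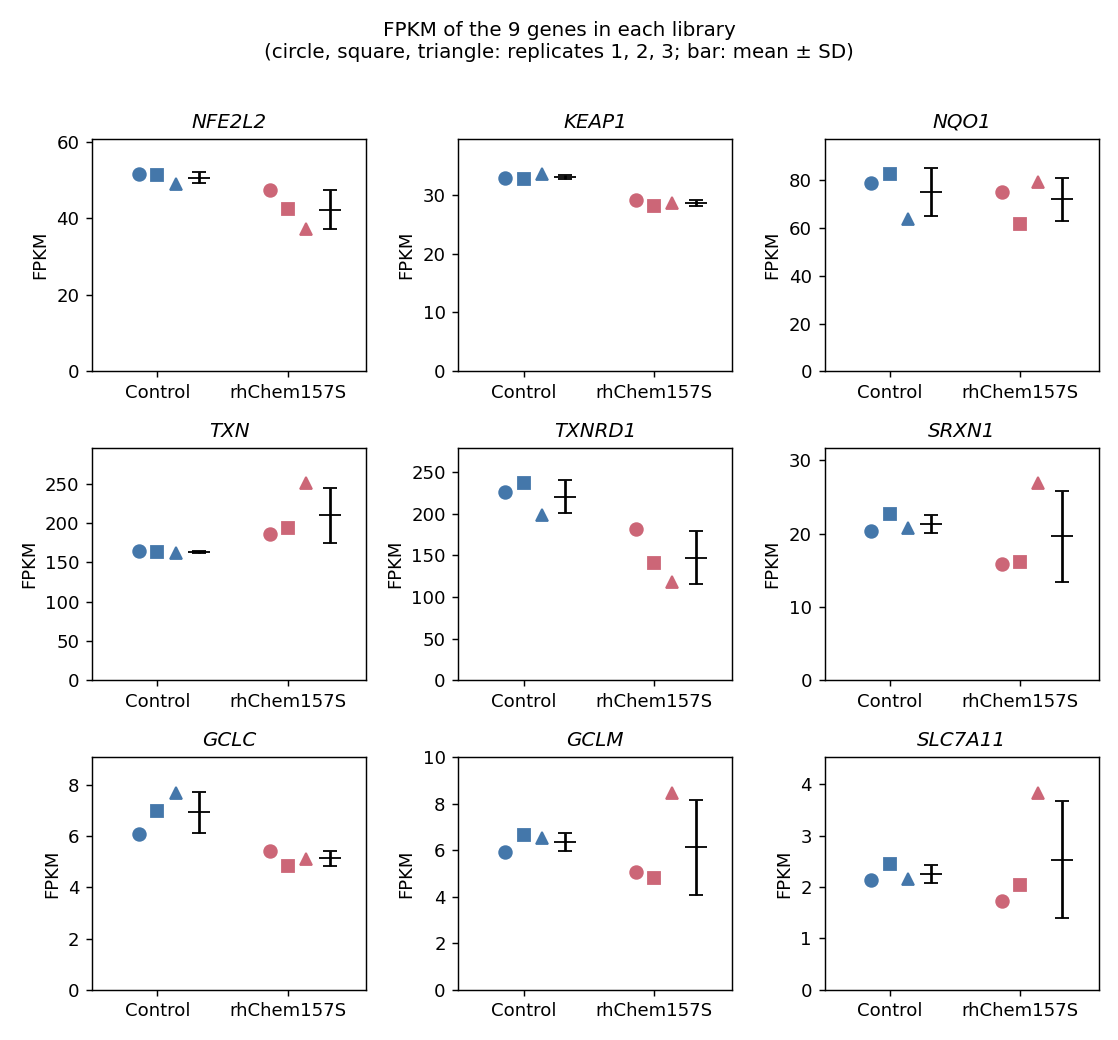
FPKM of the 9 genes (y axis, from 0, a separate scale per gene) in the 3 Control and the 3 rhChem157S libraries (x axis). Each point is a library and the bar is the mean ± SD of 3 libraries. In FPKM, TXN lies higher and TXNRD1, GCLC, NFE2L2 and KEAP1 lie lower in all 3 treated libraries. After TMM scaling the groups of NFE2L2 and KEAP1 overlap. rhChem157S replicate 3 (triangle) is the highest library for SRXN1, GCLM and SLC7A11.

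The comparison of treated with untreated cells asked which genes respond to chemerin in these cells. None of the 9 genes passed an adjusted p of 0.05 with edgeR's quasi-likelihood test (Benjamini-Hochberg), where 0.0301% of all tested genes did. At an unadjusted p under 0.05 with edgeR, TXN was higher, against 11.4% of all genes in that direction, and TXNRD1 and GCLC were lower, against 11.4% in that direction. DESeq2, which the study used, gave an adjusted p under 0.05 for TXN in the higher direction, where 3.75% of all genes passed, and for TXNRD1 in the lower direction, where 5.30% passed. The study also asked for an absolute log2 fold change above 1, which TXN and TXNRD1 did not reach. In TMM-scaled CPM the groups did not overlap for TXN, higher (16.5% of all tested genes), or for TXNRD1 and GCLC, lower (16.0% of all tested genes). The counts of members thus stood at 1 higher and 2 lower of 9, and the median log2 fold change of the 9 was 0.03, beside 0.01 for all 13311 genes.

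The thioredoxin system held both of the largest log2 fold changes of the 9 genes. Thioredoxin, encoded by TXN, reduces disulfides in other proteins, and thioredoxin reductase 1, the selenoprotein encoded by TXNRD1, returns it to the reduced state with NADPH. TXN lies on chromosome 9 from 110243811 to 110256640 (GENCODE release 29, GRCh38). Its level was 165, 163 and 162 FPKM in Control replicates 1 to 3 and 186, 193 and 250.2 FPKM in rhChem157S replicates 1 to 3. The Control libraries lay within 3 FPKM of each other, every treated library was above them, and rhChem157S replicate 3 was the highest. The log2 fold change of TXN was 0.50 (standard error, SE, 0.15, 95% interval 0.15 to 0.86, adjusted p = 0.135, edgeR), a fold of 1.42. DESeq2 gave an adjusted p = 0.0436, and this call was lost without Control replicate 1, 2 or 3 (adjusted p of 0.159, 0.257 and 0.186) or without rhChem157S replicate 2 (adjusted p = 0.0791). Leaving out rhChem157S replicate 3 brought the value to 0.30 (adjusted p = 0.0551 with edgeR and adjusted p = 0.00267 with DESeq2).

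TXNRD1 lies on chromosome 12 from 104215779 to 104350305, on the plus strand. Its level was 226, 237 and 198 FPKM in Control replicates 1 to 3 and 182, 141 and 119 FPKM in rhChem157S replicates 1 to 3. The groups did not overlap, and the treated libraries were lower by different amounts, with replicate 1 nearest to the Control libraries and replicate 3 farthest from them. For TXNRD1 the log2 fold change was -0.46 (SE 0.14, 95% interval -0.79 to -0.13, adjusted p = 0.135, edgeR), a fold of 0.727. With DESeq2 the adjusted p was 0.0377, and it was 0.198, 0.286 and 0.0689 without Control replicates 1, 2 and 3 and 0.187 without rhChem157S replicate 2, so the call was lost in each. Without rhChem157S replicate 1 the fold change was -0.61, and there edgeR called the gene (adjusted p = 0.0414).

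SRXN1 encodes sulfiredoxin, which repairs overoxidised peroxiredoxins, and lies on chromosome 20 from 646615 to 653370. Of its 2698 exon bases in GENCODE, 2292 are shared with another gene on the same strand, AL121758.1, so its count depends on the annotation used. Its level was 20.4, 22.7 and 20.8 FPKM in Control and 15.9, 16.2 and 26.9 FPKM in rhChem157S replicates 1 to 3. Treated replicates 1 and 2 were below every Control library and replicate 3 was above every Control library. The fitted log2 fold change was 0.03 (SE 0.24, 95% interval -0.52 to 0.59, adjusted p = 0.945, edgeR). Without rhChem157S replicate 3 it was -0.32 (adjusted p = 0.0682 with edgeR and adjusted p = 0.0180 with DESeq2), in the opposite direction.

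Because TXNRD1 acts on TXN, their ratio was also taken within each library, where it does not depend on the scaling. The FPKM ratio of TXNRD1 to TXN was 1.38, 1.45 and 1.23 in Control replicates 1 to 3 and 0.978, 0.732 and 0.474 in rhChem157S replicates 1 to 3. All 3 treated ratios lay under the Control range, and replicate 3 had the lowest. With TXN higher and TXNRD1 lower in every treated library, this separation follows from the genes themselves. The permutation p-value given next is then at its floor and adds no support. The mean went from 1.35 ± 0.114 to 0.728 ± 0.252 (SD, n = 3), a log2 difference of -0.95 (p = 0.10 by a two-sided exact permutation, which cannot go lower with 3 libraries against 3, and 0.30 adjusted over the 3 ratios computed). With 1 library left out the log2 difference ran from -1.20 to -0.67. The genes differ in length, so the level of the ratio rests on the lengths of 3938 and 737 bases that the deposited FPKM imply, while its difference between libraries does not.

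**Figure D2:**
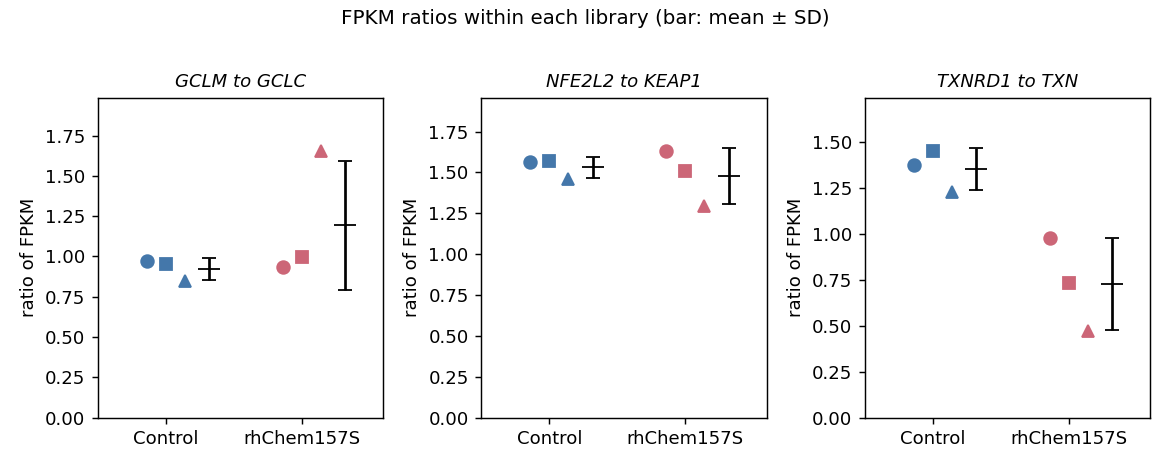
Ratios of FPKM within each library (y axis, from 0) for GCLM to GCLC, NFE2L2 to KEAP1 and TXNRD1 to TXN in Control and rhChem157S libraries (x axis). Points are libraries (circle, square and triangle for replicates 1, 2 and 3) and bars are the mean ± SD of 3. The ratio of TXNRD1 to TXN is 1.23 to 1.45 in Control and 0.474 to 0.978 in treated libraries, while the groups overlap in the other ratios.

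The glutathione branch of the 9 genes is made of the cystine importer and the enzyme of the rate-limiting step. SLC7A11 encodes the light chain of the transporter that exchanges glutamate for cystine, and GCLC and GCLM encode the catalytic and the modifier subunit of glutamate-cysteine ligase. GCLC lies on chromosome 6 from 53497341 to 53616970. Of its 8646 exon bases, 529 are shared with AL033397.1 on the same strand and 7 with AL033397.2 on the opposite strand. It was at 6.09, 6.996 and 7.71 FPKM in Control and 5.44, 4.84 and 5.13 FPKM in rhChem157S replicates 1 to 3. Its groups did not overlap in FPKM or in TMM-scaled CPM, with Control replicate 1 the lowest of the Control libraries in both. The highest treated library was replicate 1 in FPKM and replicate 3 in TMM-scaled CPM. For GCLC the log2 fold change was -0.30 (SE 0.12, 95% interval -0.59 to -0.01, adjusted p = 0.208, edgeR). With DESeq2 the adjusted p was 0.192. With 1 library left out it ran from -0.38 to -0.22, and it kept its direction under all 23 alternatives.

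GCLM, on chromosome 1 from 93885205 to 93909456, was at 5.92, 6.65 and 6.52 FPKM in Control and 5.07, 4.82 and 8.48 FPKM in rhChem157S replicates 1 to 3. As for SRXN1, treated replicates 1 and 2 were below every Control library and replicate 3 above every one. For GCLM the log2 fold change was 0.09 (SE 0.25, 95% interval -0.48 to 0.67, adjusted p = 0.840, edgeR), and -0.28 without rhChem157S replicate 3. The FPKM ratio of GCLM to GCLC was 0.972, 0.950 and 0.846 in Control and 0.932, 0.995 and 1.65 in rhChem157S replicates 1 to 3. The groups overlapped in this ratio, and its log2 difference was 0.32 (exact two-sided permutation test, p = 0.30, or 0.45 adjusted over the 3 ratios), or 0.06 without rhChem157S replicate 3.

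SLC7A11, on chromosome 4 from 138164097 to 138242349, shares 865 of its 9645 exon bases with SLC7A11-AS1 on the opposite strand, and the strand setting of the counting was not given in the sources used here. It was at 2.14, 2.45 and 2.16 FPKM in Control and 1.72, 2.04 and 3.84 FPKM in rhChem157S replicates 1 to 3. In FPKM treated replicates 1 and 2 were below the Control libraries and replicate 3 was the highest of the 6, while in TMM-scaled CPM treated replicate 2 lay within the Control range. For SLC7A11 the log2 fold change was 0.33 (SE 0.32, 95% interval -0.42 to 1.07, adjusted p = 0.556, edgeR), and -0.18 without rhChem157S replicate 3.

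The regulators themselves differed little between the groups once composition was corrected. NFE2L2 lies on chromosome 2 from 177227595 to 177392697. Of its 5979 exon bases, 1054 are shared with AC019080.1 on the same strand and 244 with genes on the opposite strand. It was at 51.5, 51.4 and 48.9 FPKM in Control and 47.4, 42.3 and 37.1 FPKM in rhChem157S replicates 1 to 3. In these FPKM the treated libraries lay under the Control range, but in TMM-scaled CPM the groups overlapped through treated replicate 1. For NFE2L2 the log2 fold change was -0.13 (SE 0.08, 95% interval -0.33 to 0.06, adjusted p = 0.357, edgeR). KEAP1, on chromosome 19 from 10486120 to 10503741, was at 32.9, 32.8 and 33.5 FPKM in Control and 29.03, 28.1 and 28.7 FPKM in treated libraries. Here too the FPKM did not overlap while the TMM-scaled CPM did, this time through treated replicate 3. The log2 fold change of KEAP1 was -0.08 (SE 0.08, 95% interval -0.26 to 0.11, adjusted p = 0.569, edgeR). The FPKM ratio of NFE2L2 to KEAP1 was 1.56, 1.57 and 1.46 in Control and 1.63, 1.51 and 1.29 in rhChem157S replicates 1 to 3. These groups overlapped, with a log2 difference of -0.06 (exact two-sided permutation test, p = 0.80, also 0.80 adjusted over the 3 ratios), or 0.03 without rhChem157S replicate 3.

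NQO1 encodes the NADPH quinone dehydrogenase, a classical readout of NRF2, and lies on chromosome 16 from 69706996 to 69726951, where 575 of its 3254 exon bases are shared with a gene on the opposite strand. It was at 79.0, 82.6 and 63.8 FPKM in Control and 75.0, 61.9 and 79.3 FPKM in rhChem157S replicates 1 to 3. In FPKM the groups overlapped over nearly their whole range, with Control replicate 2 the highest library and treated replicate 2 the lowest. In TMM-scaled CPM they also overlapped, but treated replicate 3 was the highest and Control replicate 3 the lowest. These 2 libraries were at 0.31 and -0.23 in log2 CPM relative to the Control mean. The log2 fold change was 0.07 (SE 0.15, 95% interval -0.27 to 0.42, adjusted p = 0.779, edgeR), with a negative value under library-size scaling and without Control replicate 3 or rhChem157S replicate 3.

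**Figure D3:**
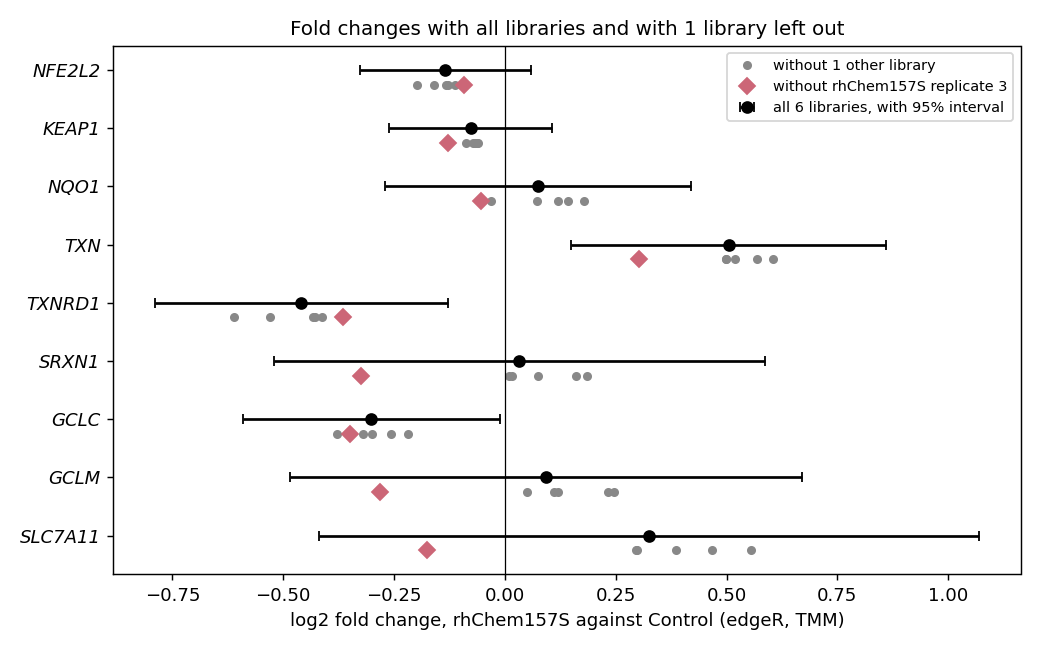
Log2 fold change of rhChem157S against Control (x axis) for the 9 genes (y axis), from edgeR with TMM scaling. Black points with bars are values with all 6 libraries and their 95% intervals, grey points leave out 1 other library each and red diamonds leave out rhChem157S replicate 3. Without that library TXN is at 0.30 and TXNRD1 stays negative, while SRXN1, GCLM, SLC7A11 and NQO1 lie below 0.

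Read library by library, the 9 genes did not share a pattern across the treated group. In log2 CPM relative to the Control mean, 2 of the 9 genes were above it in rhChem157S replicate 1, 1 in replicate 2 and 6 in replicate 3, beside 50.2%, 50.9% and 50.4% of all tested genes. The median of the 9 genes was -0.20 in replicate 1, -0.16 in replicate 2 and 0.31 in replicate 3. In replicate 3, 4 of the 9 were over 0.5 above the Control mean, namely TXN, SRXN1, GCLM and SLC7A11, beside 14.7% of all tested genes. Replicate 3 exceeded the mean of replicates 1 and 2 by 1.17 in SLC7A11, 0.91 in GCLM, 0.88 in SRXN1, 0.53 in TXN and 0.35 in NQO1. For NFE2L2 and TXNRD1 it was lower, by -0.14 and -0.30. As a description over the 6 libraries, SRXN1 and GCLM had the most similar profiles among the pairs of the 9 genes, with a root mean square difference of 0.05 in centred log2 CPM. TXNRD1 and SLC7A11 were the least similar pair at 0.62, followed by TXN and TXNRD1 at 0.57.

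The same library stood far above the others for HMOX1, the heme oxygenase that is another NRF2 target and is also controlled by the repressor BACH1. HMOX1, on chromosome 22 from 35380361 to 35394214, was at 28.8, 32.4 and 25.8 FPKM in Control and 22.1, 19.9 and 144.5 FPKM in rhChem157S replicates 1 to 3. Replicate 3 had 8396 counts where the other libraries had 1121 to 1850. The log2 fold change was 1.29 (SE 0.76, adjusted p = 0.339, edgeR), and -0.38 without rhChem157S replicate 3 (adjusted p = 0.0943 with edgeR and adjusted p = 0.0379 with DESeq2). SQSTM1, the autophagy receptor that competes for KEAP1, was at 234.5, 252.6 and 194.2 FPKM in Control and 220.5, 219.9 and 331.3 FPKM in treated replicates 1 to 3, again highest in replicate 3. SLC3A2, the heavy chain partner of SLC7A11, was at 31.8, 39.1 and 36.5 FPKM and 30.1, 29.3 and 48.3 FPKM, with the same library on top. The groups of SQSTM1 and SLC3A2 overlapped, with fold changes on the log2 scale of 0.32 and 0.15 (adjusted p = 0.391 and 0.714, edgeR). Other NRF2 targets stood on both sides in this library, read in log2 CPM relative to the Control mean. GSTA4, GSTM3 and IDH1 were at -1.945, -1.44 and -1.174 in replicate 3, their lowest library. OSGIN1 and ABCC4 were at 0.9745 and 0.5843 there, their highest. These genes are examples picked by no rule, so they do not give the share of the list on each side. Of all tested genes, 14.7% were over 0.5 above the Control mean in replicate 3. The share as far below it was not computed. What set replicate 3 apart was not tested.

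**Figure D4:**
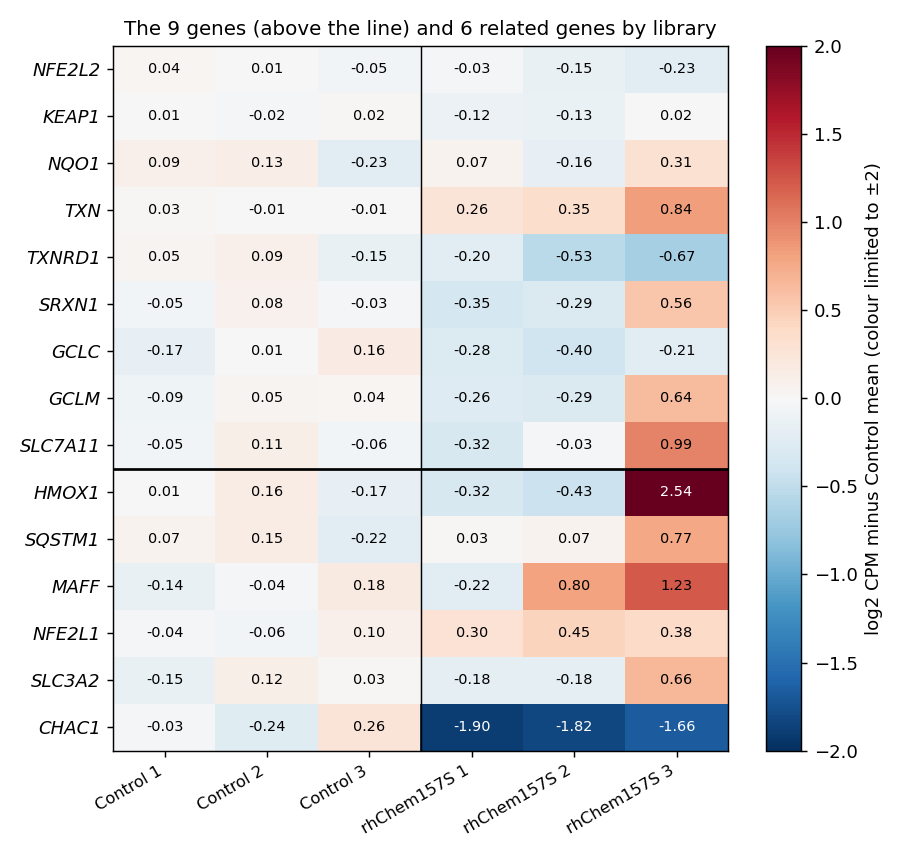
Log2 CPM after TMM scaling minus the Control mean (colour and printed value) for the 9 genes above the line and 6 related genes below it (rows) in each library (columns). The colour scale is limited to 2 in each direction. rhChem157S replicate 3 is high for HMOX1, SLC7A11, GCLM and SRXN1, while TXNRD1 is below and TXN above the Control mean in all 3 treated libraries and CHAC1 is near -1.66 to -1.90 in each.

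The rest of the pathway was read from 4 lists of 105 other genes, of which 102 passed the filter on low counts. None of the 102 had an adjusted p under 0.05 with edgeR, 14 were higher and 20 lower at an unadjusted p under 0.05 (11.4% of all tested genes in each direction), and DESeq2 called 6 higher and 20 lower (3.75% and 5.30% of all genes). In the list of partners and turnover factors of NRF2, 14 genes were tested and their median log2 fold change was 0.06, with DESeq2 calling NFE2L1 alone. NFE2L1 encodes NRF1, a relative of NRF2 that drives proteasome genes, and was at 91.3, 91.9 and 102 FPKM in Control and 111, 120 and 106 FPKM in treated libraries. The groups did not overlap, and its log2 fold change was 0.37 (SE 0.09, adjusted p = 0.101 with edgeR and adjusted p = 0.00851 with DESeq2). DPP3, whose protein binds KEAP1, and RBX1, the RING subunit of the CUL3 ligase, were also higher in every treated library after TMM scaling, with log2 fold changes of 0.25 and 0.24 and adjusted p of 0.164 and 0.180 (edgeR). Among the small MAF partners MAFF was at 12.8, 13.97 and 16.2 FPKM in Control and 11.7, 23.0 and 28.6 FPKM in treated replicates 1 to 3, so the groups overlapped through treated replicate 1. The log2 fold changes were 0.71 for MAFF, 0.08 for MAFG, -0.16 for MAFK, 0.02 for the repressor BACH1 and 0.07 for CUL3, where edgeR gave adjusted p of 0.240, 0.757, 0.347, 0.911 and 0.642. The genes of this list with the next lowest p on the lower side, PALB2 and GSK3B, had -0.11 and -0.10 (adjusted p of 0.538 and 0.540, edgeR).

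In the list of other NRF2 targets, 40 of 42 genes were tested and their median log2 fold change was -0.22, beside 0.01 for all genes. Here 24 values were below 0 and 16 above it, and DESeq2 called 13 lower and 1 higher, beside 5.30% and 3.75% of all genes. At an unadjusted p under 0.05 with edgeR 13 were lower and 3 higher, beside 11.4% of all genes in each direction. The groups did not overlap in 16 genes on the lower side and 4 on the higher, beside 16.0% and 16.5% of all genes. TRIM16L, a relative of the ubiquitin ligase TRIM16, was at 9.29, 9.28 and 7.57 FPKM in Control and 4.24, 2.81 and 3.74 FPKM in treated libraries, a log2 fold change of -1.15 (SE 0.18, adjusted p = 0.0692 with edgeR and adjusted p = 1.63e-06 with DESeq2). TRIM16L and TRIM16 are near copies, so reads may be split between them. AKR1B1, the aldose reductase, was at 72.2, 78.3 and 91.8 FPKM in Control and 48.3, 44.5 and 46.5 FPKM in treated libraries, a log2 fold change of -0.67 (SE 0.11, adjusted p = 0.0707 with edgeR and adjusted p = 7.36e-05 with DESeq2). Both genes were lower in 3 of 3 treated libraries. ALDH3A1, an aldehyde dehydrogenase, had only 18, 18 and 32 counts in Control and 2, 0 and 1 counts in treated libraries, too few for a fold change to be given.

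On the higher side of this list, UGDH, which makes UDP-glucuronic acid for conjugation, was at 16.4, 16.2 and 15.0 FPKM in Control and 19.1, 20.4 and 22.3 FPKM in treated libraries. Its log2 fold change was 0.51 (SE 0.12, adjusted p = 0.0948 with edgeR and adjusted p = 0.00783 with DESeq2), and the groups did not overlap. TALDO1, of the pentose phosphate pathway that supplies NADPH, and GSTP1, a glutathione S-transferase, differed by 0.24 and 0.23 on the log2 scale (edgeR, adjusted p = 0.135 and 0.193). In the TMM-scaled CPM their groups did not overlap, while in FPKM they did. The list of other NRF2 targets thus held genes on both sides, with more on the lower side and a median of -0.22. The 9 genes also had values on both sides, with a median of 0.03.

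In the list of other glutathione and thioredoxin genes, 40 of 41 were tested, with a median of -0.03, 19 values above 0 and 21 below, and DESeq2 called 4 higher and 6 lower, beside 3.75% and 5.30% of all genes. CHAC1, which degrades glutathione, was at 2.01, 1.77 and 2.49 FPKM in Control and 0.518, 0.533 and 0.553 FPKM in treated libraries, from 72 to 334 counts. Its log2 fold change was -1.83 (SE 0.22, adjusted p = 0.0574 with edgeR and adjusted p = 1.34e-10 with DESeq2), and the 3 treated libraries lay close together. GGT1, which cleaves glutathione outside the cell, was at 1.02, 1.26 and 1.43 FPKM in Control and 0.459, 0.273 and 0.255 FPKM in treated libraries, a log2 fold change of -1.78 (SE 0.33, adjusted p = 0.0752, edgeR). SESN2, a stress sensor that promotes the turnover of KEAP1, had a log2 fold change of -0.71 (SE 0.10, adjusted p = 0.0692, edgeR). On the higher side GSTO1, a glutathione transferase of the omega class, went from 24.8 ± 3.46 to 42.9 ± 9.53 FPKM (SD, n = 3), a log2 fold change of 0.94 (SE 0.21, adjusted p = 0.0914, edgeR). PRDX6 and GPX8, both peroxidases, differed by 0.37 and 0.42 on the log2 scale (edgeR, adjusted p = 0.0892 and 0.0774). All 6 genes were called by DESeq2, with adjusted p from 1.34e-10 for CHAC1 to 0.00721 for PRDX6.

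SLC7A11, CHAC1 and SESN2 are also targets of ATF4, the transcription factor of the amino acid response, so ATF4 and 7 of its other targets or related genes were listed. Their median log2 fold change was 0.03, and DESeq2 called TRIB3 alone. ATF4 was at 40.02, 31.6 and 34.6 FPKM in Control and 31.0, 29.1 and 41.1 FPKM in treated libraries, with overlapping groups and a log2 fold change of 0.07 (SE 0.18, adjusted p = 0.833, edgeR). TRIB3, a pseudokinase, had -0.41 (SE 0.12, adjusted p = 0.126 with edgeR and adjusted p = 0.0462 with DESeq2) and non-overlapping groups. DDIT3, the stress factor CHOP, the amino acid transporters SLC7A5 and SLC1A5, and PHGDH of serine synthesis had -0.12, -0.06, 0.17 and 0.13, and the groups overlapped in each.

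**Figure D5:**
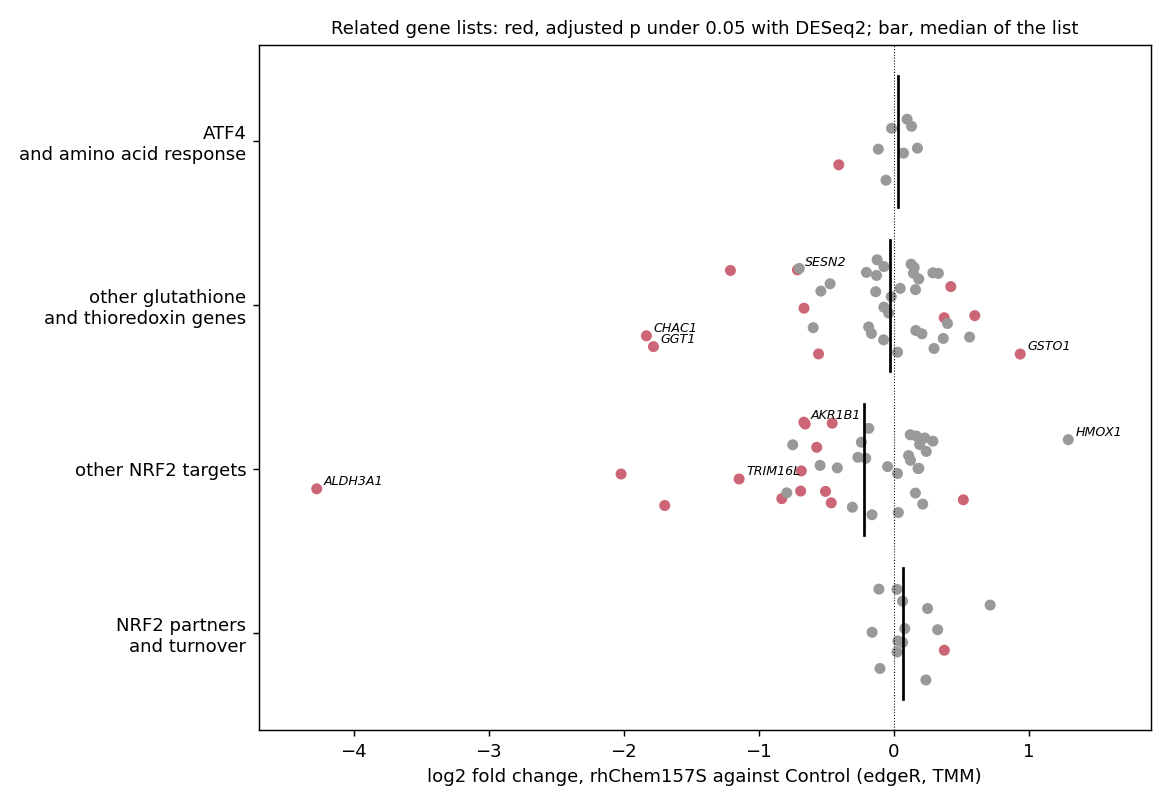
Log2 fold change (x axis, edgeR with TMM scaling) of the 102 tested genes in the 4 lists of related genes (y axis, points spread vertically for sight). Red points had an adjusted p under 0.05 with DESeq2 and bars are list medians, at -0.22 for the other NRF2 targets. ALDH3A1 has at most 2 counts in a treated library, so its place on the axis depends on the prior count of the fit.

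The genes whose profile over the 6 libraries was closest to TXN and TXNRD1, the members with the smallest p, were found among the other 13310 tested genes by the root mean square difference in centred log2 CPM. For TXN, whose profile spanned 0.85 on the log2 scale, they were EIF4A1 at 0.01, VAC14 at 0.02, NSA2 at 0.02, SART1 at 0.03 and MRPL3 at 0.03. For TXNRD1, whose profile spanned 0.76, they were FTL at 0.02, PLS1 at 0.03, LITAF at 0.04, RFX7 at 0.05 and FLT3LG at 0.05. FTL, the ferritin light chain and a member of the list of other NRF2 targets, was at 3866, 4084 and 3437 FPKM in Control and 3106, 2379 and 2101 FPKM in treated libraries. Its log2 fold change of -0.46 (SE 0.15, adjusted p = 0.142 with edgeR and adjusted p = 0.0261 with DESeq2) equalled that of TXNRD1 to 2 decimals. FTH1, the ferritin heavy chain of the same list, had 0.21 (adjusted p = 0.352, edgeR) with overlapping groups. A likeness over 6 libraries that share their depth and treatment is a description and carries no test.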

How the data were processed

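RNA of 12Z cells was sequenced as paired-end reads. The authors cleaned the reads with fastp, aligned them to GRCh38.p13 by HISAT2 and assigned them to genes by HTSeq-count, and they deposited these counts without normalization. The strand setting and annotation release were not given in the sources used here. The authors also deposited FPKM of the same 16279 genes, which equalled the count divided by a fixed length and the library total in all 89195 nonzero values (within 1%).

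Counts were tested in R 4.3.3 with edgeR 4.0.16 (TMM, filterByExpr, quasi-likelihood test, Benjamini-Hochberg adjustment over 13311 genes), without a replicate block. The alternatives were DESeq2 1.42.0, limma (3.58.1) with FPKM on a log2 scale after a pseudocount of 1 or 0.1, other scalings and filters, a replicate block and leaving out each library in turn. Ratios of FPKM were compared by an exact permutation test. The gene-wise tests were tried on simulated data. Positions came from GENCODE release 29 and promoter windows from RefSeq. The members and lists were chosen with earlier results of these data known.

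All 9 members were named, and in each list of related genes up to 3 genes with the smallest p in each direction plus MAFF, MAFG, MAFK, BACH1, CUL3, SQSTM1, HMOX1, SLC3A2 and ATF4. FTL, described with its values, came from the rule of likeness (the 5 nearest profiles). FTH1 was named beside FTL outside these rules. GSTA4, GSTM3, IDH1, OSGIN1 and ABCC4 were also named outside them, as examples of values in rhChem157S replicate 3.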

Additional observations from a re-analysis of the deposited data

How the results depend on the processing

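TXN, TXNRD1, GCLC, NFE2L2 and KEAP1 kept their direction under all 23 alternatives. The count of the 9 genes with an adjusted p under 0.05 was 0 with edgeR and limma under every alternative that used all 6 libraries, and 2 with DESeq2. With 1 library left out it ran from 0 to 3, with TXNRD1 called by edgeR without rhChem157S replicate 1, and TXN, TXNRD1 and SRXN1 called by DESeq2 without rhChem157S replicate 3. Leaving out rhChem157S replicate 2 or any 1 Control library left DESeq2 with 0. Over all genes edgeR called 4, against 0 with upper quartile factors, 17 with no filter, 15 with legacy=FALSE, 1 with the replicate block, 1302 with DESeq2, and 179 and 23 with limma on log2(FPKM + 1) and log2(FPKM + 0.1). With 1 library left out this count ran from 0 to 2616, where edgeR gave 844 once rhChem157S replicate 1 was dropped and 415 once replicate 3 was. Of the related genes 0 were called, against 1 with no filter, 1 with legacy=FALSE, 26 with DESeq2, and 6 and 1 with limma, and from 0 to 31 with 1 library left out.

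Values of 5 genes and 1 ratio changed sign under an alternative. NQO1 was -0.060 with library size only and -0.058 and -0.059 with limma, and ran from -0.053 to 0.18 with 1 library left out. SRXN1 was -0.12 with library size only, -0.026 with upper quartile factors, -0.029 with the replicate block, and -0.15 and -0.16 with limma, and ran from -0.32 to 0.19. GCLM was -0.056 with library size only and -0.084 and -0.10 with limma, and ran from -0.28 to 0.25. SLC7A11 ran from -0.18 to 0.56, HMOX1 from -0.38 to 1.72 and the log2 difference of the ratio of NFE2L2 to KEAP1 from -0.13 to 0.035, each with 1 library left out. HMOX1 was 0.53 with the replicate block and 0.47 with both limma settings. Beyond the settings named, the cause was not tested. Whether the replicate numbers pair the libraries could not be settled with 3 libraries in a group. Deviations from the group means correlated at 0.241, 0.00147 and 0.247 for numbers 1, 2 and 3. For unlike numbers the correlations ran from -0.306 to 0.106, and Control replicate 2 correlated best with treated replicate 1. Depth did not allow a fold change for ALDH3A1, with at most 2 counts in a treated library.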
